A study of Mus musculus with 46 samples.

Results

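The phase II transferases are the enzymes that join a polar group to a drug, hormone or toxin so that it can be excreted. They were taken as the genes whose symbol marks them as a UDP-glucuronosyltransferase (Ugt families 1, 2, 3 and 8), a glutathione S-transferase (Gst classes a, k, m, o, p, s, t and z), a microsomal glutathione transferase (Mgst) or a sulfotransferase (Sult), leaving out 7 names that carry the pseudogene mark "-ps". This rule, which uses names and no measured value, gave 68 of the 53465 genes in the expression table: 22 Ugt, 22 Gst, 3 Mgst and 21 Sult genes. Of these, 47 reached a mean of 1 FPKM in at least 1 group and 28 reached 10 FPKM, whereas 12 (9 Sult and 3 Ugt genes) were listed at 0 in every sample.

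RNA was sequenced from 4 cell populations sorted by flow cytometry from kidneys of wild-type male C57BL/6 mice (8 to 12 weeks of age): proximal tubule (PT) cells binding LTL, macrophages carrying F4/80, endothelial cells carrying CD31 and stromal cells carrying PDGFRB. The mice had a sham operation, unilateral ureteric obstruction (UUO) or UUO followed by reimplantation of the ureter (reversal, rUUO), the last killed 14 days after reversal. The study obstructed for 2 or 7 days, and the labels of the UUO samples analysed here do not give the day. There were 3 sham, 4 UUO and 3 rUUO samples of PT cells, 4, 4 and 3 of macrophages, 4, 3 and 4 of endothelial cells and 4 of each of stromal cells. Each sort was checked against marker genes, and each population had the highest level of its own markers. The defining PT markers stood at a median of 3.90% of their PT level in sham macrophages, 3.17% in sham endothelial and 1.69% in sham stromal cells. The title of the second PT UUO sample names both operations; it was grouped as UUO by its other label. Without it, 15 members again differed between UUO and sham PT cells, 14 of them shared with the full comparison. Values are FPKM (read fragments scaled to transcript length and to the library's total) without counts, so the depth of each library is unknown. Transcripts of the mitochondrial genome took 58.7 to 75.6% of the FPKM in PT cells and 20.2 to 45.8% in the other populations.

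As background, glucuronosyltransferases transfer glucuronic acid from UDP-glucuronic acid in the endoplasmic reticulum, glutathione transferases add glutathione to electrophiles, and sulfotransferases use the sulfate donor PAPS. The proximal tubule is the main site in the kidney for these reactions and for the uptake and secretion of the conjugates. Many of the genes lie in clusters of near copies. The 9 Ugt1a genes (chr1:88055388-88220002, mm10) each have their own first exon and splice it to exons that they all share. The 10 Ugt2 genes lay within chr5:86889767-87490871, the 7 Gstm genes within chr3:107895821-108044894, the 3 Gstp genes within chr19:4035407-4059446, and Gsta1, Gsta2 and Gsta4 within chr9:78182774-78355788.

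Levels within such clusters are uncertain, because fragments from shared sequence cannot be told apart. In the longest annotated transcripts, 68.8% of the 100-base stretches of Ugt1a7c, 57.5% of Ugt1a10, 35.1% of Ugt1a6a and 63.1% of Ugt1a5 also occurred in another gene. The share was 52.8% for Gstp1, 35.0% for Gsta2 and 24.2% for Ugt2b38, but 7.73% for Gstm1 and 0.622% for Gstm2. No stretch of Ugt3a2, Ugt3a1, Gsta4, Mgst1 or Sult1d1 was shared.

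In sham kidneys the 4 populations held different sets of these enzymes. Of the 42 members with a sham mean of at least 1 FPKM in some population, 24 were highest in PT cells, 10 in stromal cells, 5 in endothelial cells and 3 in macrophages. The summed level of all members was 1732 ± 137 FPKM (SD, n = 3) in PT and 1678 ± 123 FPKM (SD, n = 4) in stromal cells, against 625 ± 80.6 in endothelial cells and 265 ± 32.4 in macrophages (SD, n = 4 each). The near equality of the PT and stromal sums depends on the scaling. Mitochondrial transcripts took a mean of 71.7% of the FPKM in sham PT and 37.5% in sham stromal cells. The make-up of the sums differed. In PT cells Gsta2 took 31.6%, Ugt2b38 16.3% and Ugt3a2 12.8% of the sum. In stromal cells Gstm1 took 49.0%, Gstm2 21.1% and Gstp1 9.28%. Ugt genes summed to 648 ± 31.1 FPKM in PT cells (SD, n = 3) and to 19.7 ± 1.41 FPKM in stromal cells (SD, n = 4).

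**Figure D1:**
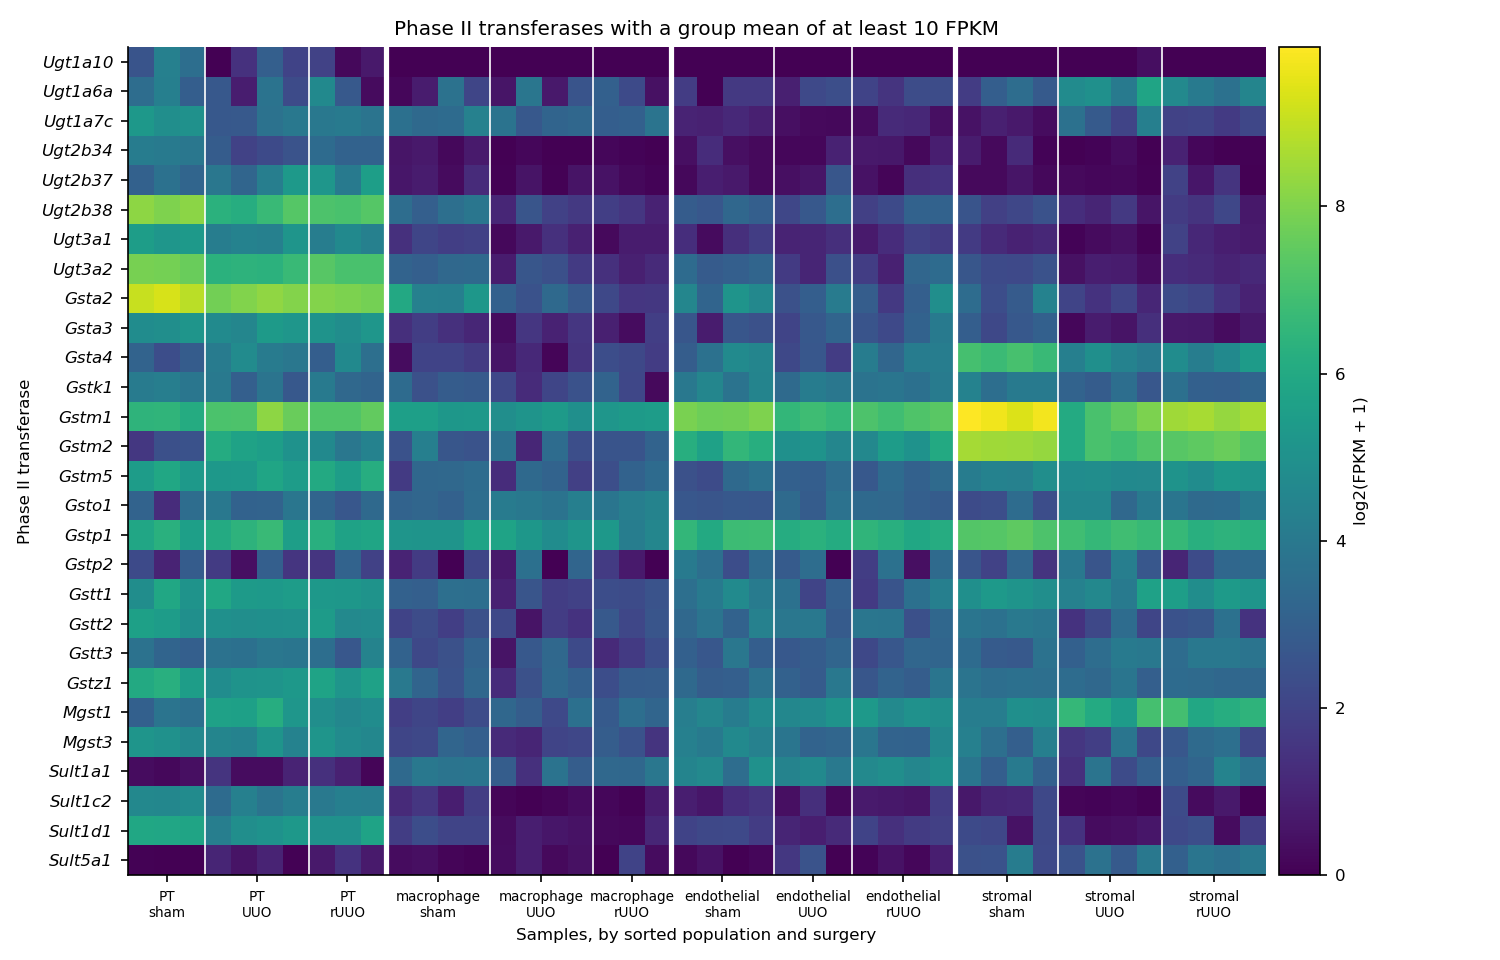
Levels of the 28 phase II transferases with a group mean of at least 10 FPKM, as log2(FPKM + 1), in each of the 44 samples (columns, by population and surgery). Ugt2b38, Ugt3a2 and Gsta2 were bright in PT columns, and Gstm1, Gstm2 and Gsta4 in sham stromal columns.

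Among glucuronosyltransferases in PT sham cells, Ugt2b38, one of the mouse Ugt2b enzymes that conjugate steroids and drugs, stood at 298, 251 and 291 FPKM. Ugt3a2, whose family uses other UDP-sugars in place of UDP-glucuronic acid, stood at 235, 230 and 201 FPKM. Ugt1a7c was lower, at 37.9, 28.8 and 31.3 FPKM. Of the glutathione transferases, the alpha-class enzyme Gsta2 had the highest level of any member, at 545, 627 and 477 FPKM. Gstm1 (mu class) followed at 85.4, 88.8 and 66.9 FPKM. Gstz1, the zeta-class enzyme that also works as maleylacetoacetate isomerase in tyrosine breakdown, had 63.9, 74.9 and 44.2 FPKM, and Gstp1 (pi class) had 56.9, 76.5 and 47.0 FPKM. The ranges of Gstm1, Gstz1 and Gstp1 overlapped, so their order was not resolved. Gstt2 (theta class) had 49.1, 43.5 and 29.4 FPKM, Mgst3 34.5, 30.9 and 23.9 FPKM, and the mitochondrial and peroxisomal enzyme Gstk1 16.6, 17.8 and 13.97 FPKM. The main sulfotransferase was Sult1d1, at 59.0, 56.5 and 54.5 FPKM. It was higher than all other Sult members in all 3 sham samples.

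PT sham cells were compared with each other population by limma on log2(FPKM + 1), with a call at a Benjamini-Hochberg adjusted p under 0.05 over all genes. Of 35 members tested, 23 were higher and 1 lower in PT cells than in macrophages, where 12.6% of all genes were called higher and 52.4% lower. Against endothelial cells 20 were higher and 7 lower (all genes, 8.73% and 53.6%), and against stromal cells 19 were higher and 8 lower (all genes, 7.89% and 59.7%). The median difference over the tested members was 1.47, 1.92 and 1.14 on the log2 scale, beside -0.90, -0.93 and -1.06 over all genes. That lower median of all genes came with the larger mitochondrial share in PT cells, whose part was not tested. After quantile normalization it lay between 0.0084 and 0.037, with 28, 25 and 25 members higher and 1, 3 and 7 lower. Among the members higher in PT than in stromal cells, the largest differences were those of Ugt2b38 (5.86 ± 0.25, SE), Gsta2 (5.83 ± 0.50) and Ugt3a2 (5.40 ± 0.21), with limma adjusted p-values of 6.41e-12, 2.47e-08 and 1.89e-12.

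Fewer members were higher in another population than in PT cells. The thick ascending limb marker sum was 244 to 317 FPKM in sham stromal and 56.6 to 61.3 FPKM in sham PT cells. The distal and collecting duct marker sum was 167 to 345 and 28.8 to 33.1 FPKM. In sham endothelial cells these sums were 134 to 644 and 51.8 to 298 FPKM. The part of such RNA in the levels below was not tested. Gstm1 stood at 959, 829, 662 and 854 FPKM in sham stromal cells and at 238, 211, 218 and 252 FPKM in sham endothelial cells. Gstm2 had 384, 362, 346 and 322 FPKM in sham stromal cells and 72.7, 50.1, 94.2 and 73.2 FPKM in sham endothelial cells, against 2.01, 4.34 and 4.61 FPKM in sham PT cells. Gsta4, which conjugates 4-hydroxynonenal and other products of lipid peroxidation, had 125, 107, 130 and 103 FPKM in sham stromal cells and 7.88, 4.12 and 6.38 FPKM in sham PT cells. None of these stromal ranges overlapped the PT range. The PT-minus-stromal difference was -3.34 ± 0.16 (SE) for Gstm1, -6.30 ± 0.36 for Gstm2 and -4.07 ± 0.42 for Gsta4, with limma adjusted p-values of 3.73e-11, 2.25e-10 and 2.67e-07. Sult1a1, the phenol sulfotransferase, ranged from 0.17 to 0.33 FPKM in sham PT cells. It had 21.4, 24.0, 10.5 and 31.6 FPKM in sham endothelial cells, 9.54, 14.6, 13.1 and 13.3 FPKM in sham macrophages and 13.4, 6.82, 15.7 and 7.20 FPKM in sham stromal cells, and was the 1 member called higher in macrophages. Gstp2 had 15.9, 11.2, 4.10 and 9.72 FPKM in sham endothelial cells and 3.72, 0.99 and 6.44 in sham PT cells. These ranges overlapped, and the call (limma adjusted p = 0.0479) was lost without PT sham sample 1 or 2 or endothelial sham sample 1, 2 or 4 (0.0736 to 0.258) and after quantile normalization (0.873).

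After obstruction, PT cells held less RNA of 11 members and more of 4 than sham PT cells, of 34 members tested by limma with adjusted p under 0.05. Over all 11416 genes tested the calls ran the other way, with 27.9% higher and 4.91% lower. The median change was -0.40 over the tested members and 0.51 over all genes. As the mitochondrial share was 64.0 ± 3.64% in UUO and 71.7 ± 3.45% in sham PT cells (SD, n = 4 and 3), changes were also read after quantile normalization, which brought the median of all genes to -0.04. Then 1218 genes were higher and 1217 lower, and 3 members were higher and 15 lower. In bulk samples of a sorted population, fewer cells of a type and less RNA per cell cannot be told apart.

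The decreases lay mostly among the glucuronosyltransferases. Of 13 Ugt members tested in PT cells, 7 fell and none rose. Among those that fell is Ugt1a5, which met the filter on low values with the help of its sham samples. Ugt2b38 fell to 80.3, 70.5, 103 and 155 FPKM, below all 3 sham samples. Ugt3a2 fell to 78.3, 83.5, 82.1 and 104 FPKM, also without overlap. Ugt1a7c fell to 5.60, 5.83, 12.3 and 14.6 FPKM. The changes were -1.51 ± 0.23, -1.35 ± 0.17 and -1.77 ± 0.30 on the log2(FPKM + 1) scale (SE), with limma adjusted p-values of 0.000263, 4.75e-05 and 0.000615. Ugt2b34 went from 16.7, 15.5 and 14.2 FPKM in sham to 6.31, 2.87, 3.63 and 4.74 FPKM in UUO, a change of -1.65 ± 0.26 (limma adjusted p = 0.000336). The UUO samples of these 4 genes all lay below the lowest sham sample.

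Ugt1a10 and Ugt1a5 fell as well, from low levels. Ugt1a10 had 4.91, 18.9 and 10.9 FPKM in sham and 0, 1.69, 7.01 and 3.03 FPKM in UUO, and the ranges overlapped. Ugt1a5 had 3.65, 1.58 and 7.15 FPKM in sham and was listed at 0 in 3 of the 4 UUO samples and at 1.10 FPKM in the other. Its sham mean of 4.13 FPKM helped it past the filter of 1 FPKM, so the filter favoured a fall, and its call adds little to the count. The limma adjusted p was 0.0321 for Ugt1a10 (change -1.87 ± 0.62, SE) and 0.0123 for Ugt1a5 (-1.94 ± 0.52). The first call was lost without PT sham sample 2 or 4 or PT UUO sample 1 or 2 (adjusted p from 0.0608 to 0.13), and the second without PT sham sample 4 (0.0753). Ugt3a1 fell from 36.2 to 44.4 FPKM in sham to 17.6 to 34.8 FPKM in UUO (limma adjusted p = 0.0203), a call lost without PT sham sample 1 or 4 or PT UUO sample 1 or 3 (0.0512 to 0.0757). Ugt2b37, a further Ugt2b gene of the same cluster, had 7.34, 11.9 and 8.33 FPKM in sham and 14.03, 8.47, 18.1 and 39.9 FPKM in UUO and did not pass the test (0.87 ± 0.43, adjusted p = 0.138).

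**Figure D2:**
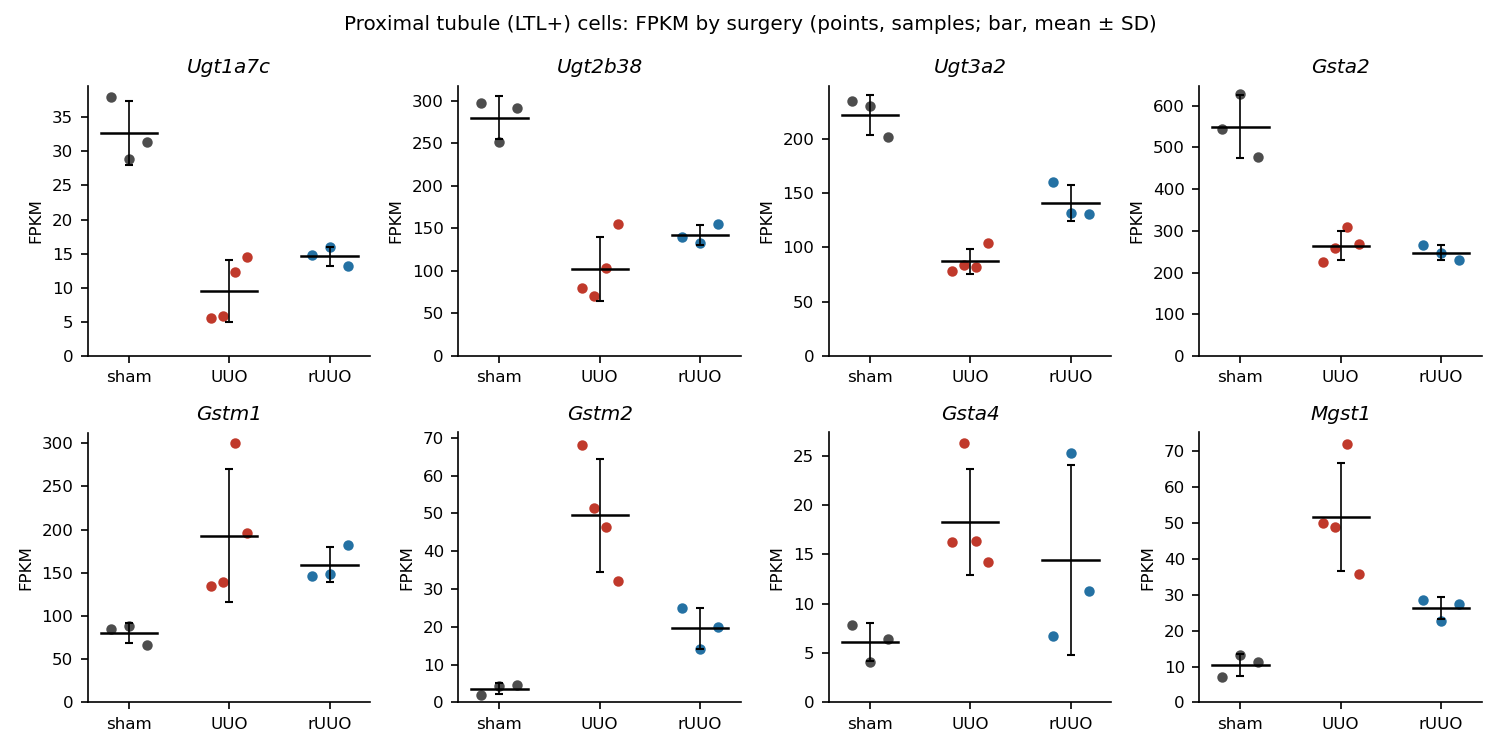
FPKM of 8 members in PT cells after sham operation, UUO and rUUO (points, samples; horizontal bar and whisker, mean ± SD; n = 3, 4 and 3). Ugt1a7c, Ugt2b38, Ugt3a2 and Gsta2 were lower in all 4 UUO samples than in any sham sample, and Gstm1, Gstm2, Gsta4 and Mgst1 higher.

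The glutathione transferases of PT cells moved in both directions. Gsta2 fell from the sham values above to 224, 259, 308 and 267 FPKM (-1.05 ± 0.16, SE, limma adjusted p = 0.000296), with no overlap; in a fit over all 4 populations, which pools their spread, the adjusted p was 0.129. Gstz1 fell to 27.0, 33.1, 34.1 and 37.8 FPKM (-0.84 ± 0.23, adjusted p = 0.0128), a call lost without PT sham sample 2 (0.0608). Gstm2 rose to 68.1, 51.3, 46.4 and 32.1 FPKM, so that the lowest UUO sample exceeded the highest sham sample of 4.61 FPKM. The change of 3.44 ± 0.30 (SE, limma adjusted p = 1.37e-06) was the largest increase of any member in PT cells. Gstm1 rose to 135, 139, 301 and 197 FPKM (1.19 ± 0.25, adjusted p = 0.00292), and Gsta4 to 16.3, 26.2, 16.3 and 14.3 FPKM (1.44 ± 0.37, adjusted p = 0.00916), both above every sham sample. The Gsta4 call was lost after quantile normalization (adjusted p = 0.133). The other 12 Gst members tested did not pass, among them Gsta3 (27.4 to 34.9 FPKM in sham and 22.2 to 41.0 in UUO), Gstm5 (39.9 to 59.1 and 38.0 to 56.1) and Gstp1, at 66.1, 84.5, 105 and 46.4 FPKM in UUO. Gstt2 in UUO was at 30.2, 28.9, 29.4 and 30.2 FPKM and Gstk1 at 15.0, 7.01, 13.0 and 5.66 FPKM (adjusted p = 0.197 and 0.11).

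Of the microsomal enzymes, Mgst1, which is a glutathione transferase and peroxidase of the endoplasmic reticulum and outer mitochondrial membrane, rose in PT cells from 7.20, 13.2 and 11.2 FPKM in sham to 49.95, 49.0, 72.0 and 35.8 FPKM in UUO. The groups did not overlap (2.19 ± 0.26, SE, limma adjusted p = 2.77e-05). Mgst3 did not pass the test, at 21.6, 20.2, 33.7 and 20.2 FPKM in UUO. Of the sulfotransferases, Sult1d1 fell to 18.1, 28.8, 31.8 and 37.8 FPKM, below all sham samples (-0.98 ± 0.26, adjusted p = 0.0106). Sult1c2 fell from 22.9 to 26.1 FPKM in sham to 10.2 to 19.1 FPKM in UUO (-0.70 ± 0.24, adjusted p = 0.0341), a call lost without PT sham sample 1, 2 or 4 or PT UUO sample 1 or 3 (0.0604 to 0.106).

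Markers of other cells moved with these changes in PT cells. Of 10 proximal tubule markers, 8 fell, with a summed level of 3570 to 4752 FPKM in sham and 1132 to 1638 FPKM in UUO. Of 4 thick ascending limb markers, 2 rose and 1 fell (sum 56.6 to 61.3 FPKM in sham and 152 to 208 in UUO), and of 6 distal and collecting duct markers 3 rose (28.8 to 33.1 and 101 to 112 FPKM), among them Atp6v1b1. Of 6 stromal markers tested 2 rose, Rgs5 and Dcn, and the sum of all 8 was 26.0 to 31.5 FPKM in sham and 37.6 to 71.1 FPKM in UUO. No defining marker of these lists had a group mean of 0 in sham or UUO PT cells, though the lowest sham value of Cldn16 was 0. Their part in the changes of the transferases was not tested. Stromal markers in UUO PT cells stood at a median of 0.548% (0.248 to 19.4%) of their level in UUO stromal cells. Gstm2 in UUO PT cells stood at 42.9% of its UUO stromal level, Gsta4 at 88.0%, Gstm1 at 124% and Mgst1 at 62.3%. Thick ascending limb, distal and collecting duct cells were not sorted, so no such comparison could be made with them.

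After reversal, 2 of 34 members differed from UUO in PT cells by limma, 1 higher and 1 lower, where 0.674% of all genes were higher and 3.15% lower. Gstm2 fell to 24.9, 14.1 and 20.1 FPKM in rUUO, below every UUO sample (-1.27 ± 0.30, SE, adjusted p = 0.0352). Ugt3a2 rose to 160, 132 and 131 FPKM, above every UUO sample (0.69 ± 0.17, adjusted p = 0.0377). Both calls were lost without any 1 of 6 of the 7 libraries, all but PT UUO sample 4, with adjusted p from 0.0552 to 0.138 for Gstm2 and from 0.0667 to 0.134 for Ugt3a2. With the mitochondrial genes removed, Ugt3a2 was the 1 member called, and after rescaling to TPM Gstm2 was. Quantile normalization gave 2 higher and 0 lower members.

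Against sham, 10 members differed in rUUO PT cells, 5 higher and 5 lower, beside 6.52% and 0.946% of all genes. All but Ugt2b37 and Gstm6 had also differed between UUO and sham. Gsta2 had 267, 247 and 230 FPKM in rUUO, below every sham sample and within the UUO range (-1.14 ± 0.18, SE, limma adjusted p = 0.000799). Ugt2b38 had 140, 133 and 156 FPKM, Ugt3a1 17.6, 24.7 and 18.9 FPKM and Ugt1a10 2.84, 0.17 and 0.61 FPKM, each below all sham samples, with adjusted p of 0.0294, 0.0445 and 0.0321. Ugt3a2 was also lower than in sham (-0.65 ± 0.18, adjusted p = 0.0434). On the other side, Gstm2 stood above all sham samples (2.17 ± 0.33, adjusted p = 0.000632), as did Mgst1 at 28.6, 22.7 and 27.5 FPKM (1.27 ± 0.28, adjusted p = 0.0109), Ugt2b37 at 36.2, 16.1 and 46.2 FPKM (1.63 ± 0.46, adjusted p = 0.0473), Gstm1 at 147, 148 and 183 FPKM (0.98 ± 0.27, adjusted p = 0.0403) and Gstm6 at 2.71, 1.43 and 2.04 FPKM against 0.55, 0 and 0.26 in sham. Without 1 library the count was between 3 (without PT sham sample 1) and 6, and only the calls of Gsta2 and Gstm2 were kept without each of the 6 libraries in turn. Mgst1 was lost without PT sham sample 1 (0.058), Ugt1a10 without PT sham sample 2 or 4 or PT rUUO sample 3 or 4 (0.0934 to 0.122), and each of the other 6 without at least 4 of the 6 libraries, which between them were all 3 sham and all 3 rUUO samples (0.0547 to 0.169). Quantile normalization gave 3 higher and 6 lower members. Members in rUUO did not all stand on the sham side of UUO. Ugt3a2 and Gstm2 lay between the sham and UUO levels, while Gsta2 and Ugt1a10 lay within the UUO range. Of the PT markers, 4 of 10 were still lower than in sham and 5 of 10 higher than in UUO, and Atp6v1b1 and Umod were still higher than in sham; the part of this in the members' levels was not tested.

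In stromal cells, 16 of 28 members differed between UUO and sham by limma, 4 higher and 12 lower, where 13.4% of all genes were higher and 13% lower. The median change was -0.47 over the tested members and -0.07 over all genes. The summed level of all members went from 1678 ± 123 FPKM to 682 ± 155 FPKM (SD, n = 4 each). The 2 mu-class genes that made up most of the sham sum fell furthest in level. Gstm1 went from the sham values above to 65.8, 132, 177 and 249 FPKM (-2.54 ± 0.29, SE, adjusted p = 9.8e-06), and Gstm2 to 65.6, 133, 115 and 147 FPKM (-1.67 ± 0.21, adjusted p = 2.42e-05). Gsta4 fell to 18.2, 29.2, 20.2 and 15.5 FPKM (-2.46 ± 0.25, adjusted p = 3.56e-06). All 3 lay below every sham sample in all 4 UUO samples. Gsta3 fell from 6.87, 3.42, 5.57 and 7.11 FPKM to 0.12, 0.67, 0.45 and 1.5 FPKM (-2.02 ± 0.35, adjusted p = 0.00047). Its means of 0.685 FPKM in UUO and 0.4825 FPKM in rUUO were below the filter of 1 FPKM, which it met through its sham samples. Gstp1 fell from 151, 156, 173 and 138 FPKM to 115, 95.03, 115 and 102 FPKM (-0.53 ± 0.15, adjusted p = 0.0145), a smaller change whose call was lost after rescaling to TPM (0.0628). Gstt2, Mgst3, Gstm6 and Gstk1 fell too, with changes between -1.55 and -0.94. Mgst3 lost its call without any 1 of 6 libraries (stromal sham sample 1, 2 or 4 or UUO sample 1, 2 or 4, adjusted p 0.0661 to 0.113), Gstt2 without UUO sample 1 (0.0591), Gstk1 without sham sample 1 (0.0647) and Gstm6 without sham or UUO sample 2 (0.0552 and 0.0589).

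The 4 members that rose in stromal UUO cells were glucuronosyltransferases of the Ugt1a cluster and 2 glutathione transferases. Ugt1a7c went from 0.41, 0.81, 0.60 and 0.25 FPKM in sham to 11.9, 6.02, 3.12 and 18.5 FPKM in UUO (2.62 ± 0.41, SE, limma adjusted p = 0.000224). Ugt1a6a, a phenol-conjugating enzyme, went from 2.40, 6.84, 10.6 and 6.06 FPKM to 26.7, 30.0, 15.6 and 54.2 FPKM (2.12 ± 0.39, adjusted p = 0.00082). Neither overlapped between the groups, and as the 2 genes share 68.6% of the 100-base stretches of Ugt1a7c, how the fragments divide between them is uncertain. Mgst1 rose from 17.4, 17.6, 29.4 and 27.97 FPKM to 97.1, 66.2, 41.9 and 127 FPKM (1.73 ± 0.32, adjusted p = 0.000768), again without overlap. Gsto1, an omega-class enzyme with thioltransferase activity, had 3.76, 4.26, 10.2 and 4.02 FPKM in sham and 22.7, 22.8, 9.07 and 16.0 FPKM in UUO (1.52 ± 0.34, adjusted p = 0.00345), where 1 sham sample lay above 1 UUO sample.

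Tubular RNA in the stromal libraries moved with part of this. The sum of the PT markers was 56.3 to 104 FPKM in sham and 11.4 to 22.3 FPKM in UUO stromal cells, and that of the thick ascending limb markers 244 to 317 and 31.2 to 55.1 FPKM (3 of 4 fell, Umod, Slc12a1 and Cldn16). That of the distal and collecting duct markers was 167 to 345 and 2.30 to 9.57 FPKM (6 of 6 fell), that of the podocyte markers 34.4 to 92.9 and 4.08 to 14.2 FPKM (3 of 3 fell), and that of the endothelial markers 112 to 143 and 42.0 to 70.4 FPKM (4 of 8 fell). Of the stromal markers themselves, 5 of 8 rose, among them Col1a1, Col1a2 and Col3a1, and Pdgfrb and Cspg4 fell. The members that fell include Gsta2, Ugt3a2 and Ugt2b38, which stood in sham stromal cells at 1.84, 1.94 and 1.40% of their PT level, where the PT markers had 1.69%. Their changes were -1.62, -1.80 and -1.14 on the log2(FPKM + 1) scale, and the part of tubular RNA in them was not tested. The Ugt2b38 call was lost without stromal sham sample 1, 3 or 4 or UUO sample 1, 2 or 4 (limma adjusted p 0.0527 to 0.102) and that of Gsta2 without sham sample 4 (0.0502). Gstm1 in sham stromal cells stood at 1028% of its sham PT level, Gsta4 at 1899%, and Gstm2 was 3.65 ± 1.43 FPKM in sham PT cells (SD, n = 3). Thick ascending limb, distal and collecting duct cells were not sorted, so the levels of these genes there are unknown. The part of RNA from those cells in the stromal changes was not tested.

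**Figure D3:**
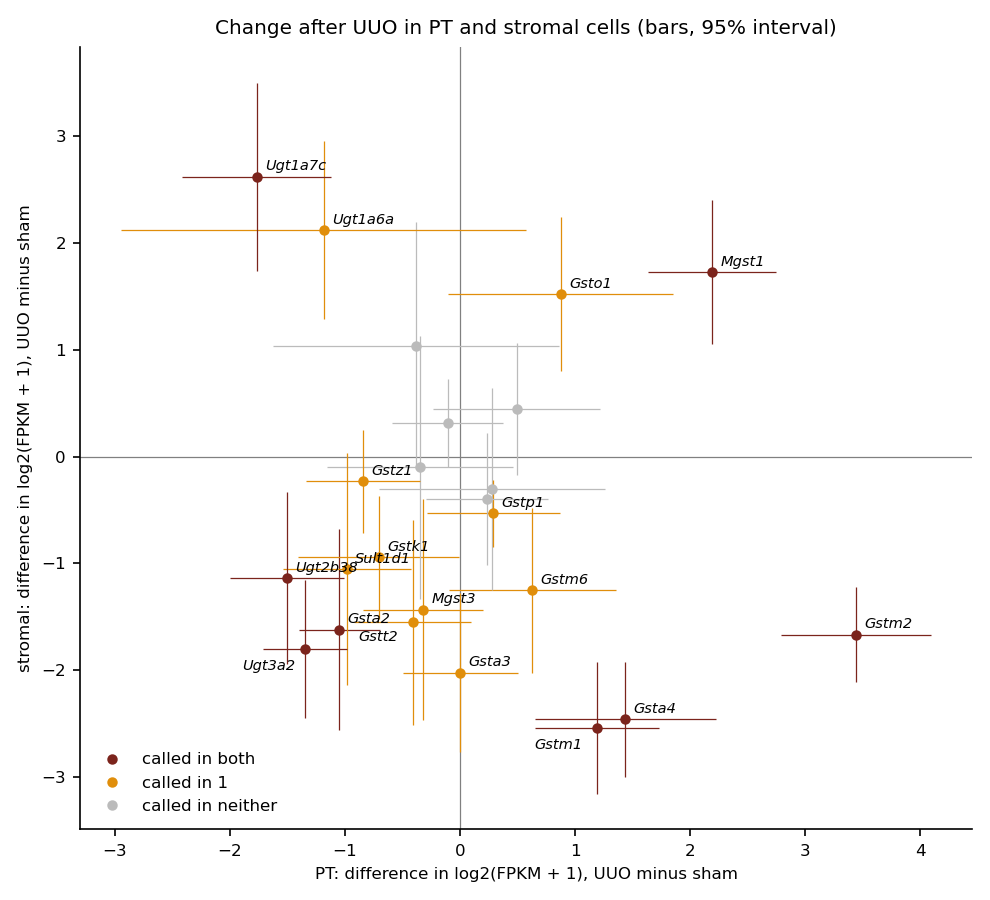
Change in log2(FPKM + 1) after UUO in PT cells (horizontal axis) and stromal cells (vertical axis) for the 24 members tested in both, with 95% intervals. Of the 8 called in both, Gstm1, Gstm2 and Gsta4 rose in PT and fell in stromal cells, Ugt1a7c did the reverse, Mgst1 rose in both, and Gsta2, Ugt3a2 and Ugt2b38 fell in both.

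Between rUUO and UUO stromal cells, 1 of 28 members differed and it was higher, while 0 were lower (all genes, 2.95% higher and 1.22% lower). Gstm1 rose to 355, 395, 319 and 391 FPKM, above every UUO and below every sham sample (1.37 ± 0.29, SE, limma adjusted p = 0.0166). Against sham, 12 members differed, 5 higher and 7 lower, beside 11.6% and 5.57% of all genes. All but Gstm5 had also differed between UUO and sham. Gsta4 stood at 27.5, 17.2, 24.8 and 42.6 FPKM (-2.08 ± 0.25, adjusted p = 3.33e-05), Gsta3 at 0.58, 0.54, 0.27 and 0.54 FPKM (-2.15 ± 0.35, adjusted p = 0.000435) and Gstm2 at 160, 172, 197 and 157 FPKM (-1.04 ± 0.21, adjusted p = 0.00232), all below every sham sample. Gstp1, at 98.7, 75.6, 83.1 and 77.9 FPKM, was lower in the rUUO than in the sham samples without overlap (-0.88 ± 0.15, adjusted p = 0.000597). Mgst1 stayed above every sham sample, at 123, 59.8, 70.3 and 85.6 FPKM (1.82 ± 0.32, adjusted p = 0.000767). Ugt1a6a had 24.5, 16.0, 12.1 and 21.8 FPKM and Ugt1a7c 2.88, 3.14, 2.22 and 3.34 FPKM, above their sham samples (adjusted p = 0.0158 and 0.0331). The Ugt1a7c call was lost without any 1 of 6 libraries (stromal sham sample 1, 3 or 4 or rUUO sample 1, 2 or 6, adjusted p 0.0562 to 0.0846) and that of Ugt1a6a without sham or rUUO sample 1 (0.0553 and 0.0524). Gsta2 was also lower than in sham, a call lost without stromal sham sample 1 or 4 or rUUO sample 4 or 6 (0.0561 to 0.0836). Gstm5 and Gsto1 were higher, and each call was lost without any 1 of 6 libraries (sham sample 1, 2 or 3 for Gstm5 and 1, 2 or 4 for Gsto1, and rUUO sample 1, 4 or 6 for both, 0.0519 to 0.122). Quantile normalization gave 3 higher and 9 lower members in this comparison. Between sham and rUUO stromal cells the summed level of the distal and collecting duct markers went from 167 to 345 FPKM to 6.86 to 22.75 FPKM (6 of 6 lower), that of the thick ascending limb markers from 244 to 317 to 52.8 to 88.3 FPKM (3 of 4 lower) and that of the PT markers from 56.3 to 104 to 11.3 to 39.3 FPKM (3 of 7 tested lower). Their part in the members' levels was not tested.

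In endothelial cells, 3 of 26 members differed between UUO and sham by limma, 0 higher and 3 lower (all genes, 1.28% higher and 0.702% lower). All 3 also fell in stromal cells. Gstm1 fell to 93.1, 114 and 95.9 FPKM, below every sham sample (-1.18 ± 0.17, SE, adjusted p = 0.00129). Gstm2 fell to 30.0, 32.9 and 22.6 FPKM (-1.30 ± 0.30, adjusted p = 0.0377). Gsta4 went from 6.55, 12.1, 25.6 and 21.5 FPKM to 3.40, 5.44 and 2.37 FPKM (-1.77 ± 0.41, adjusted p = 0.0377). The Gstm1 call held without each of the 7 libraries in turn, whereas that of Gstm2 was lost without endothelial sham sample 1, 3 or 4 or any UUO sample (0.0607 to 0.116) and that of Gsta4 without sham sample 2, 3 or 4 or UUO sample 1 or 4 (0.0609 to 0.116). Stromal markers stood at a median of 3.65% of their stromal level in sham and 0.866% in UUO endothelial cells, where stromal levels themselves rose, and their summed FPKM was 77.6 to 123 and 72.1 to 115. The sum of the PT markers was 83.8 to 234 FPKM in sham and 24.8 to 70.1 FPKM in UUO endothelial cells. For the thick ascending limb markers it was 134 to 644 and 48.2 to 170 FPKM. For the distal and collecting duct markers it was 51.8 to 298 and 23.8 to 102 FPKM. The ranges of these last sums overlapped. The part of tubular RNA in the members' changes was not tested. Between rUUO and UUO no member was called, where 0.0597% of all genes were (3 members had an unadjusted p under 0.05, and the fit over all populations called 1). Against sham, 1 of 26 members was called in rUUO and it was lower, with 0 higher (all genes, 1.4% higher and 0.366% lower). Gstm1 had 140, 116, 143 and 163 FPKM, all below the sham samples (-0.71 ± 0.16, adjusted p = 0.0285), and the call was lost without endothelial sham sample 1, 3 or 4 or rUUO sample 1, 2 or 4 (0.0607 to 0.102).

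In macrophages, 4 of 28 members differed between UUO and sham by limma, 0 higher and 4 lower (all genes, 2.86% higher and 2.13% lower). Gsta2 fell from 61.7, 19.1, 18.3 and 37.0 FPKM to 7.30, 4.71, 9.55 and 5.75 FPKM (-2.02 ± 0.37, SE, adjusted p = 0.00623), Ugt2b38 from 10.8, 6.94, 11.2 and 13.7 FPKM to 1.09, 5.06, 2.76 and 2.10 FPKM (-1.71 ± 0.37, adjusted p = 0.0177) and Gstt1 from 7.49, 7.04, 11.2 and 11.1 FPKM to 0.86, 5.19, 2.47 and 2.78 FPKM (-1.52 ± 0.35, adjusted p = 0.0254). Sult1d1 was the fourth (adjusted p = 0.0255), with a mean of 3.16 FPKM in sham and 0.48 FPKM in UUO. It met the filter of 1 FPKM through its sham samples. Gsta2 alone kept its call without each of the 8 libraries in turn. Ugt2b38 lost its call without macrophage sham sample 1 or 4 (0.05 to 0.0541), Gstt1 without any sham sample or UUO sample 1 or 3 (0.0521 to 0.0721) and Sult1d1 without any library but UUO sample 2 (0.0504 to 0.0888). In sham macrophages Gsta2 stood at 6.19%, Ugt2b38 at 3.80%, Ugt3a2 at 3.78% and Sult1d1 at 5.58% of the PT level, where the PT markers ranged from 3.23 to 6.75%. The PT markers fell with them, 5 of 8 tested, and their sum was 143 to 208 FPKM in sham and 34.3 to 51.0 FPKM in UUO macrophages; their part was not tested. Gstt1 stood at 23.1% of its PT level.

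In rUUO macrophages some members again stood below sham. Between rUUO and UUO no member was called by limma and 0% of all 13332 genes were (3 members had an unadjusted p under 0.05, and no alternative called a member). Against sham, 4 members were called in rUUO, 0 higher and 4 lower (all genes, 1.89% higher and 1.55% lower). Gsta2 had 3.40, 1.96 and 2.07 FPKM (-3.18 ± 0.40, SE, adjusted p = 0.000388), Ugt3a2 1.59, 0.82 and 1.29 FPKM against 7.87, 7.08, 9.07 and 9.50 in sham (-2.08 ± 0.42, adjusted p = 0.0132) and Ugt2b38 2.60, 1.98 and 0.93 FPKM (-2.05 ± 0.40, adjusted p = 0.0104), none overlapping with sham. Ugt3a2 lost its call without macrophage rUUO sample 4 (0.071) and Ugt2b38 without rUUO sample 6 (0.0613). The sum of the PT markers was 32.9 to 46.3 FPKM in these samples, against 143 to 208 FPKM in sham macrophages. In rUUO macrophages Gsta2 stood at 0.999%, Ugt3a2 at 0.874% and Ugt2b38 at 1.29% of the PT level. The PT markers there ranged from 0.531 to 2.69%. The part of PT RNA in the levels of these members was not tested. Ugt1a7c was not in this pattern. It stood at 38.6% of the PT level in sham macrophages (11.5, 9.54, 10.1 and 19.3 FPKM) and at 12.6, 5.65, 8.05 and 9.04 FPKM after UUO, with overlapping ranges.

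The change after UUO in PT cells was then set against that in each other population as an interaction in 1 limma fit over all 44 samples. Against stromal cells 10 of 35 members differed, 5 with a higher and 5 with a lower change in PT cells (all genes, 23% and 6.16%). Against endothelial cells there were 4 and 2 (10.1% and 1.06%), and against macrophages 4 and 2 (13.7% and 1.77%). After quantile normalization these were 6 and 6, 4 and 5, and 2 and 4. Gstm2, Gstm1 and Gsta4 had the higher change in PT cells in all 3 comparisons, which share the PT samples. The difference from stromal cells was 5.11 ± 0.57 (SE) for Gstm2, 3.73 ± 0.35 for Gstm1 and 3.90 ± 0.55 for Gsta4, with limma adjusted p-values of 5.46e-09, 7.81e-11 and 7.37e-07. Each of these 3 calls held without any 1 of the 15 libraries. Against macrophages, the Gsta4 call was lost after quantile normalization (0.109). At the level of the samples, stromal Gstm1 was 826 ± 123 FPKM and PT Gstm1 80.4 ± 11.8 FPKM in sham (SD, n = 4 and 3), and 156 ± 76.8 and 193 ± 77.1 FPKM in UUO (SD, n = 4 each), when their ranges overlapped.

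Ugt1a7c had the opposite pattern, with a PT-minus-stromal difference of -4.39 ± 0.48 (SE, limma adjusted p = 4.05e-09): its UUO samples ranged from 5.60 to 14.6 FPKM in PT and from 3.12 to 18.5 FPKM in stromal cells, where the sham ranges lay far apart. Ugt1a6a differed in the same direction (-3.31 ± 1.10, adjusted p = 0.0208), a call lost without PT sham sample 2 or PT UUO sample 2 (0.0634 and 0.059). Mgst1 changed more in PT than in endothelial cells (1.79 ± 0.44, adjusted p = 0.00476), where it had 17.7, 22.2, 16.7 and 25.6 FPKM in sham and 23.3, 26.0 and 32.8 FPKM in UUO. Its PT-minus-stromal difference did not pass the test. Gsta3 and Gstm6 had a higher change in PT than in stromal cells (2.03 ± 0.56 and 1.88 ± 0.49), neither of them having changed in PT cells by the test there. Ugt1a10 and Ugt2b34 were also among the calls in all 3 comparisons, from levels near 0 outside PT cells. Ugt1a10 was listed at 0 in every macrophage, endothelial and sham stromal sample, so that its difference from macrophages and endothelial cells is the PT change itself and does not compare populations. Outside PT cells Ugt2b34 did not exceed 1.38 FPKM in any sample, and with a pseudocount of 0.1 its 3 differences did not pass the test (adjusted p 0.428 to 0.932).

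**Figure D4:**
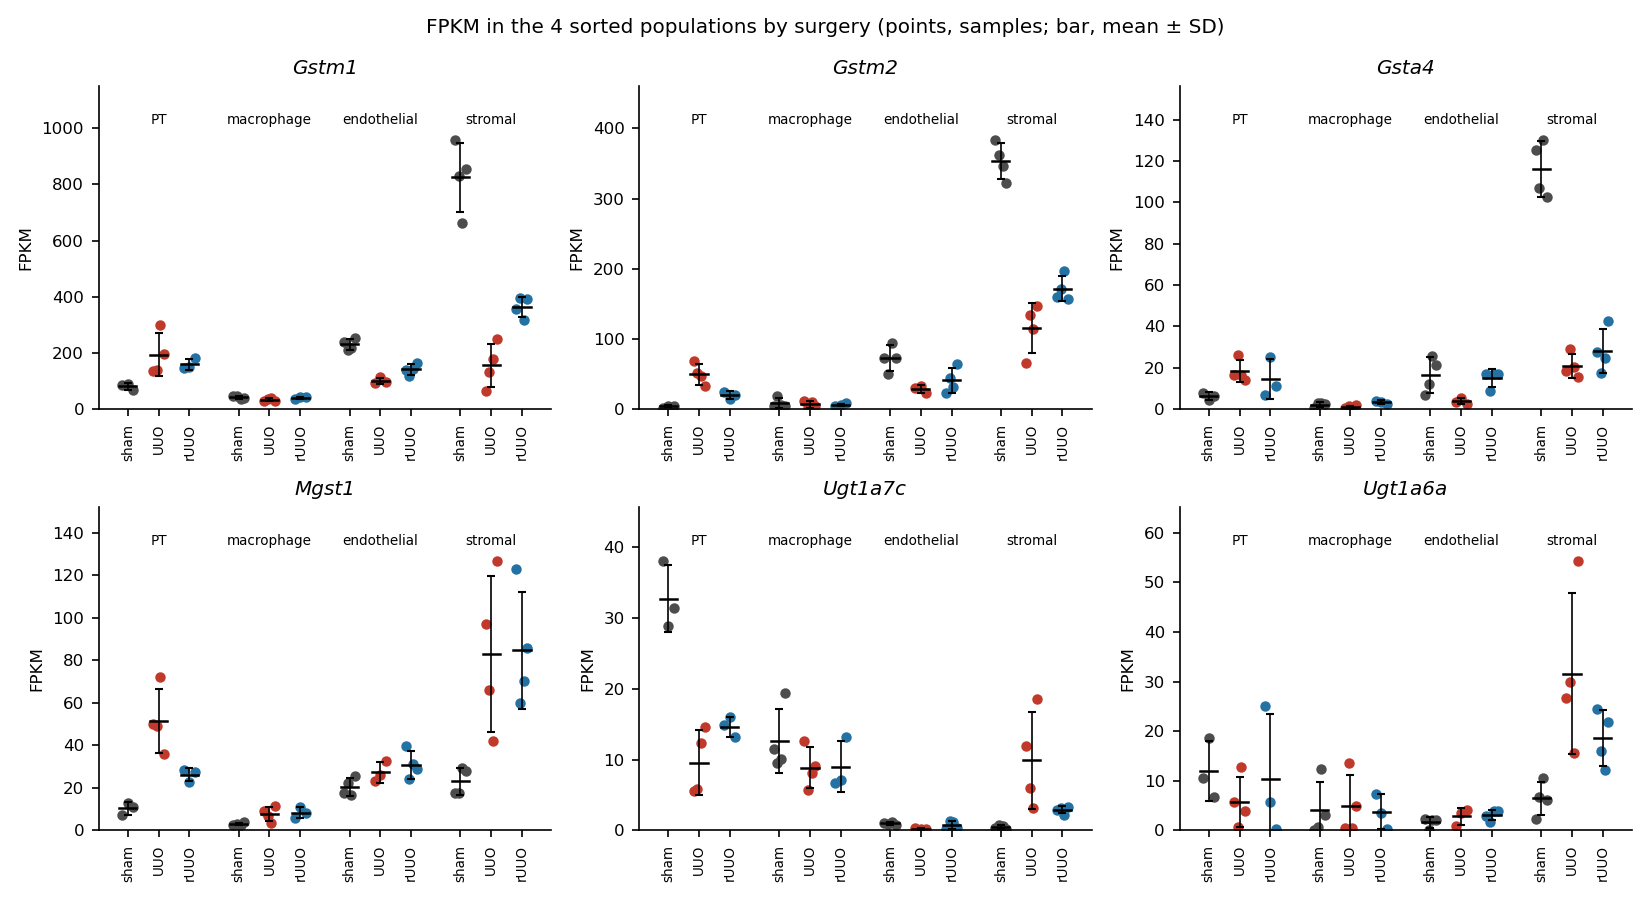
FPKM of 6 members in the 4 populations by surgery (points, samples; bar and whisker, mean ± SD). Stromal Gstm1, Gstm2 and Gsta4 were high in sham and lower after UUO while PT levels were higher after UUO, Mgst1 was higher after UUO in PT and stromal cells, and Ugt1a7c was lower in PT and higher in stromal cells.

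Genes around the same reactions were counted from lists chosen with the members. In PT cells after UUO, 6 of the 7 genes listed for the mercapturate pathway fell and none rose. That pathway trims glutathione conjugates and acetylates the product. The list also counts the aminoacylases Acy1 and Acy3, which remove acetyl groups, so the count does not follow 1 direction of the pathway. Over all genes 27.9% were higher and 4.91% lower in this comparison, and 8 of the 10 PT markers fell in the same libraries; their part in the counts of these lists was not tested. Dpep1, the membrane dipeptidase, went from 49.6 to 89.5 FPKM in sham to 9.40 to 19.2 FPKM in UUO, and Nat8f1, of the N-acetyltransferase 8 family, from 55.8 to 104 to 8.88 to 20.1 FPKM. Ggt1, the gamma-glutamyltransferase that takes the first step, fell by 0.91 on the log2 scale (SE 0.20, limma adjusted p = 0.00414). Of 7 transporters of conjugates and organic anions, 3 fell (Slc22a6, Slc22a8 and Abcg2) and 2 rose. The basolateral uptake carrier Slc22a8 went from 112 to 150 FPKM to 16.3 to 26.7 FPKM, and the efflux pump Abcc3 from 0.15 to 1.28 FPKM to 7.73 to 13.0 FPKM. Of 12 tested genes for the supply of cofactors, Gclc, the catalytic subunit of the first enzyme of glutathione synthesis, rose (13.5 to 18.1 FPKM in sham and 29.9 to 43.0 in UUO). Papss2, which makes PAPS, and Bpnt1, which clears its product, fell (43.9 to 52.0 and 13.6 to 29.3 FPKM for Papss2).

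Among the regulators in PT cells, Nfe2l2, which drives the antioxidant response, rose from 11.1 to 13.4 FPKM to 53.5 to 61.6 FPKM, and Arnt rose as well. Hnf4a, Rxra and Ppara fell, Hnf4a from 59.1 to 78.3 FPKM to 30.5 to 55.1 FPKM. The deconjugation list named Gusb, Sts and the lysosomal sulfatases Arsa and Arsb, and Sts was not found in the expression table. Of 2 genes of that list tested Arsb fell, and of 6 other conjugating enzymes Inmt and Glyat fell. Action of Arsa and Arsb on phase II conjugates was not tested. After reversal, Nfe2l2 had 26.4 to 35.0 FPKM, still above sham (limma adjusted p = 0.00129), and Dpep1 24.9 to 56.7 FPKM, above UUO (adjusted p = 0.0131).

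In stromal cells after UUO, Ugdh, which makes UDP-glucuronic acid, rose from 7.21 to 11.1 FPKM to 29.3 to 97.5 FPKM, and Papss2 from 6.38 to 13.2 FPKM to 34.7 to 40.4 FPKM, while Gclc (12.6 to 18.3 FPKM in sham and 3.17 to 9.98 in UUO) and Bpnt1 fell, of 12 tested genes for cofactors. All 3 genes of the deconjugation list tested, Gusb and the lysosomal sulfatases Arsa and Arsb, rose. Over all genes 13.4% were higher and 13% lower in this comparison. Of 6 genes of the mercapturate list tested Anpep rose and Ggt1 and Acy3 fell, and of 5 transporters Slc22a6 fell. Of 6 other conjugating enzymes Nnmt rose. In sham stromal cells Slc22a6 stood at 3.045 FPKM, Ggt1 at 8.97 and Acy3 at 17.3, against 85.0, 89.9 and 273 FPKM in sham PT cells. The PT marker sum fell from 56.3 to 104 FPKM in sham to 11.4 to 22.3 FPKM in UUO stromal cells. The part of tubular RNA in these changes was not tested. Among the regulators Ahr, the aryl hydrocarbon receptor, rose from 2.38 to 5.78 FPKM to 7.79 to 18.6 FPKM. Nfe2l2 had 48.3 to 58.0 FPKM in sham and 57.5 to 79.7 FPKM in UUO stromal cells and did not pass the test. In UUO macrophages no gene for cofactors was called of 13 tested (median change 0.08), and in UUO endothelial cells none of 12 (median change -0.06).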

How the data were processed

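RNA of the sorted cells was amplified (Ovation kit) and sequenced as paired reads on an Illumina HiSeq. The authors deposited 1 table of FPKM per gene. The submitters' processing notes name FastQC, RSEM, Bowtie2, DESeq2 and the mm10 build, and versions are not given in the sources used here. Of 68 members, 64 have the coordinates of GENCODE M21. The table has 46 columns of values, of which 2 share 1 name and were left out because they could not be told apart. The labels do not tie samples to single mice, so p-values measure the spread between these samples, which may be technical.

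Tests ran on log2(FPKM + 1), which understates changes of low genes, for genes averaging 1 FPKM or more in the fit, with limma 3.58.1 in R 4.3.3 (lmFit, contrasts.fit, eBayes with an intensity trend). A member below 1 FPKM in a group can meet this filter through another group where it is high. Its call then follows in part from the filter, as for Ugt1a5 in PT cells, Gsta3 in stromal cells and Sult1d1 in macrophages. P-values were adjusted by Benjamini-Hochberg over all genes tested, and a call is an adjusted p under 0.05. Fits held the 3 surgery groups of 1 population, the sham samples of the 4 populations, or all 44 samples for the difference of a change. The fit was tested on simulated data. Members, gene lists and tests were chosen with earlier results of these data known. Any member may be named; values per sample are given for the highest member of each class in sham PT cells (mean of 10 FPKM or more), for the called members with the largest changes (up to 8 each way for PT UUO against sham, 4 for other PT comparisons and 3 elsewhere) and for up to 4 members per population higher there than in sham PT cells. Other genes come from the lists, of which some regulators are not reported here. As alternatives, the fits were repeated without the low-value filter, with 0.1 as the pseudocount, on TPM, after quantile normalization, with the 37 mitochondrial genes removed, with no trend, in 1 fit for the 4 populations, with a block for replicate number, and with each library left out. Same-numbered samples of a population did not deviate together across surgeries (r from -0.06 to 0.10). Between populations of the same surgery, r of same-numbered samples ranged from -0.075 to 0.167. The main fits are unpaired. If populations with the same number were sorted from the same mouse, the tests between populations ignore that pairing.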

Additional observations from a re-analysis of the deposited data

Results flagged for a closer look

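Within groups of 4 samples, 1 sample stood apart from the others by Dixon's criterion in 11 of the 179 groups tested over 28 members, where chance gives about 1 in 20. The gap to the nearest sample, as a share of the group's range, was 0.891 for Gsta3 in endothelial sham sample 2 (0.68 FPKM), 0.836 for Gsta4 in macrophage sham sample 1 (0.26 FPKM) and 0.965 for Gsta4 in endothelial rUUO sample 2 (8.54 FPKM). It was 0.923 for Gstm2 in macrophage sham sample 2 (18.6 FPKM), 0.886 for Gstm5 in macrophage sham sample 1 (2.18 FPKM) and 0.883 for Gsto1 in stromal sham sample 3 (10.2 FPKM). It was 0.925 for Gstp1 in macrophage sham sample 4 (52.5 FPKM), 0.874 for Mgst3 in PT UUO sample 3 (33.7 FPKM) and 0.878 for Sult1c2 in endothelial rUUO sample 6 (2.42 FPKM). It was 0.939 for Sult1d1 in stromal sham sample 3 (0.39 FPKM) and 0.922 for Ugt1a6a in endothelial sham sample 2, where it was listed at 0.

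The change after UUO differed between PT cells and another population, by the interaction term of limma, for 22 pairs of member and population. The PT-minus-stromal difference in log2 change was 5.11 for Gstm2, 3.90 for Gsta4, 3.73 for Gstm1, 2.03 for Gsta3 and 1.88 for Gstm6, and -4.39 for Ugt1a7c, -3.31 for Ugt1a6a, -2.25 for Ugt1a5, -1.97 for Ugt1a10 and -1.20 for Ugt2b34. The PT-minus-endothelial difference was 4.74 for Gstm2, 3.21 for Gsta4, 2.37 for Gstm1, 1.79 for Mgst1, -1.87 for Ugt1a10 and -1.49 for Ugt2b34. The PT-minus-macrophage difference was 3.78 for Gstm2, 2.11 for Gsta4, 1.75 for Gstt1, 1.53 for Gstm1, -1.87 for Ugt1a10 and -1.16 for Ugt2b34. The 3 sets of differences share the PT samples. Ugt1a10 was listed at 0 in all endothelial and macrophage samples, so its -1.87 is the PT change itself and not a comparison of populations, and Ugt2b34 did not exceed 1.38 FPKM in any sample outside PT cells.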

How the results depend on the processing

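The 18 counts of called members were recomputed under up to 8 other settings and with each library left out. Of the recomputed counts, 238 stayed within 1.5 times the main count and 56 did not. For PT rUUO against UUO the count of 2 became 1 with a pseudocount of 0.1, TPM or no mitochondrial genes and 0 with no filter, no trend, the fit over 4 populations or the replicate block. For PT rUUO against sham the count of 10 became 2 with no filter, 5 with no trend, 4 with the replicate block and 6 in the fit over 4 populations. For macrophage UUO against sham 4 became 8 in the fit over 4 populations and 1 with the replicate block, which also gave 1 in place of 4 for macrophage rUUO against sham. For endothelial UUO against sham 3 became 1 with no trend or the replicate block, endothelial rUUO against UUO went from 0 to 1 in the fit over 4 populations, and endothelial rUUO against sham went from 1 to 0 with TPM, no trend, the replicate block or the fit over 4 populations. For stromal rUUO against UUO 1 became 0 with no filter or the replicate block and 2 in the fit over 4 populations, and for stromal rUUO against sham 12 became 5 with the replicate block. Leaving out 1 library gave 11 to 15 for PT UUO against sham, 0 to 2 for PT rUUO against UUO, 3 to 6 for PT rUUO against sham, 1 to 5 and 2 to 3 for macrophage UUO and rUUO against sham, 1 to 2 and 0 to 1 for the same in endothelial cells, and 13 to 16 and 7 to 11 in stromal cells, with 1 to 2 for stromal rUUO against UUO. The calls of 99 results, each 1 member in 1 comparison, were recomputed in the same way. The call was kept in 1351 recomputations and lost in 297. The direction reversed in 1: the PT-minus-macrophage difference of Ugt2b34, 0.17 with a pseudocount of 0.1. The replicate numbers were not shown to pair the samples. Depth is unknown, so the precision of low values is not given.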
